A study of Mus musculus with 2 samples.

Results

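Cluster 11 of the deposited clustering held 365 of the 13683 thymus cells in the 2 single-cell libraries. Its cells were taken as those to which the deposited cell table gives the number 11 at Seurat resolution 1.5. The deposited clusters carry numbers, which were not matched here to the cell types named by the study. The same 365 cells, and no others, formed a single cluster at resolutions 1.8 and 2. They were cycling thymocytes that carried many transcripts of DNA replication and ribosome production and fewer of mitosis and of replication-dependent histones than the other S phase clusters, 10 and 12.

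Thymocytes divide in a burst after a productive rearrangement of the T cell receptor beta chain, when the pre-TCR and Notch signal together. During this burst CD4- CD8- (double negative, DN) cells become CD8+ immature single positive cells and then CD4+ CD8+ (double positive, DP) cells, which stop dividing and rearrange the alpha chain. A cell that enters the cycle first makes the licensing and replication proteins through E2F factors. Histone transcripts follow once DNA synthesis runs, and the transcripts of G2 and mitosis come last.

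The mice were littermates aged 6 weeks. For the WT library, thymi of 5 Cdc42f/f mice were pooled, and for the KO library those of 5 mice that were Cdc42f/f CD4Cre. In both groups loxP sites flank exon 2 of Cdc42, and in the KO mice the Cre recombinase is expressed from the CD4 promoter. Each genotype has 1 library, so no test between genotypes was possible. All intervals below are 95% intervals, of counted UMIs or cells or, for medians, of the spread over cells. None covers variation between mice or libraries, so overlap or its absence is no test between genotypes. Because clusters were built from the same transcripts, values of cluster 11 beside other clusters are descriptions.

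The WT library held 29706197 unique molecular identifiers (UMIs, counted molecules) and the KO library 37920214. Cluster 11 contributed 2858855 UMIs from 177 WT cells, with a median of 12864 per cell (range 2090 to 45349), and 3596553 UMIs from 188 KO cells, with a median of 17206 (range 3521 to 42083). Mitochondrial transcripts took a median of 2.44% of UMIs in WT and 2.56% in KO cells of the cluster. The libraries shared 17 cell barcodes, of which 2 cells lie in cluster 11. Scrublet's own threshold called 2 WT cells and 0 KO cells of the whole series as doublets, too few to be useful. Of the cells with the 6% highest doublet scores, 6 WT and 2 KO cells were in cluster 11, and they were kept.

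Cluster 11 made up 2.89% of WT cells (177 of 6115; Clopper-Pearson interval 2.49 to 3.35%) and 2.48% of KO cells (188 of 7568; 2.15 to 2.86%). The KO share was 0.858 times the WT share, with an interval from 0.695 to 1.06. That interval covers counting error only, and with 1 library a genotype a difference in size was not tested.

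Markers of dividing cells were present at high levels. Level is given throughout as CPM, the UMIs of a gene per 1000000 summed UMIs of a cluster in a library. Mki67, a nuclear protein of dividing cells, was at 379 CPM in WT and 437 CPM in KO cells of cluster 11, beside 3.4 and 4.9 CPM in cluster 7, which had few cell cycle transcripts and served for comparison. Top2a, a topoisomerase that untangles replicated DNA, was at 488 and 470 CPM, beside 16.3 and 7.1 CPM in cluster 7. After each cell was thinned to 1500 UMIs, 32.8% of WT cells (25.9 to 40.2%) and 42.0% of KO cells (34.9 to 49.4%) held an Mki67 UMI. In cluster 7 these shares were 0% (0 to 1.12%) and 0.759% (0.157 to 2.20%), with median depths of 6737.5 and 5032 UMIs. Without thinning, 87.6% and 84.6% of the cells of cluster 11 held an Mki67 UMI.

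The 3 markers given for the cluster did not single it out among its neighbours. Dntt, which adds bases at the junctions of rearranged receptor genes, was at 1151 and 1069 CPM in cluster 11, lower than in cluster 13 (1951 and 1900) and cluster 14 (1979 and 1725). Ptcra, the invariant chain of the pre-TCR, was at 79.1 and 93.1 CPM, beside 307 and 425 CPM in cluster 14. Trdc, the constant region of the delta chain, was at 258 CPM in WT and 321 CPM in KO cells, within the range of 231 to 351 CPM of clusters 10, 12, 13 and 14. Among these 5 clusters cluster 11 held the highest level of none of the 3 genes in WT, and of Trdc alone in KO.

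Markers of cells other than thymocytes were low. The summed list of 9 macrophage genes gave 31.5 and 35.3 CPM (15.2 to 67.9 CPM over clusters 10, 12, 13 and 14), and the 8 thymic epithelial genes gave 34.98 and 55.1 CPM (20.1 to 240 CPM). The 5 measured erythroid genes gave 4.90 CPM in WT and no UMI in KO, where 3 UMIs would be 0.834 CPM. In cluster 13 they gave 1720 CPM in WT and 0.887 CPM in KO. The 10 B cell genes gave 459 and 390 CPM (236 to 1049 CPM in the other 4 clusters), almost all from Ighm with 401 and 345 CPM, while Ms4a1 was at 0 in both libraries. The 11 dendritic and class II genes gave 337 and 420 CPM (274 to 1373 CPM), of which Ccr9 and Bst2, also expressed by thymocytes, held most.

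Ranked by mean level in the cluster relative to all remaining cells, the top 10 were Cdc6 (26.2-fold), Ung (22.6-fold), Chek1 (22.2-fold), Hells (17.1-fold), Egfl7 (16.6-fold), Ccne2 (15.7-fold), E2f1 (14.9-fold), Pask (14.8-fold), Aunip (14.3-fold) and Mcm10 (14.1-fold). Cdc6 and Mcm10 load and activate the replicative helicase, Ccne2 encodes cyclin E2, E2f1 switches on replication genes, Chek1 guards replication forks, and Ung removes uracil from DNA. Egfl7, a secreted factor, and Pask, a kinase, are not known as replication genes. Cdc6 was seen in 72.9% of the cells and Hells, a chromatin remodeller, in 95.9%.

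Taken by level, the licensing genes were shared with cluster 12 and set cluster 11 apart from 10, 13 and 14. Cdc6 stood at 118 CPM in WT and 114 CPM in KO cells of cluster 11, against 104 and 96.7 CPM in cluster 12. It stood at 27.6 and 28.4 CPM in cluster 10 and at 5.0 CPM or less in clusters 13 and 14. Ung went further. It was at 124 and 134 CPM in cluster 11 and at 44.2 and 53.7 CPM in cluster 12, while in WT cells of cluster 10 not 1 UMI was counted. Set against 3 UMIs, a level of 0.942 CPM, Ung was at least 132-fold higher in cluster 11 than in cluster 10 of the WT library. Ccne2 was higher in cluster 12 (119 and 113 CPM) than in cluster 11 (101.1 and 82.0 CPM), so not every gene of this group peaked in cluster 11.

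**Figure D1:**
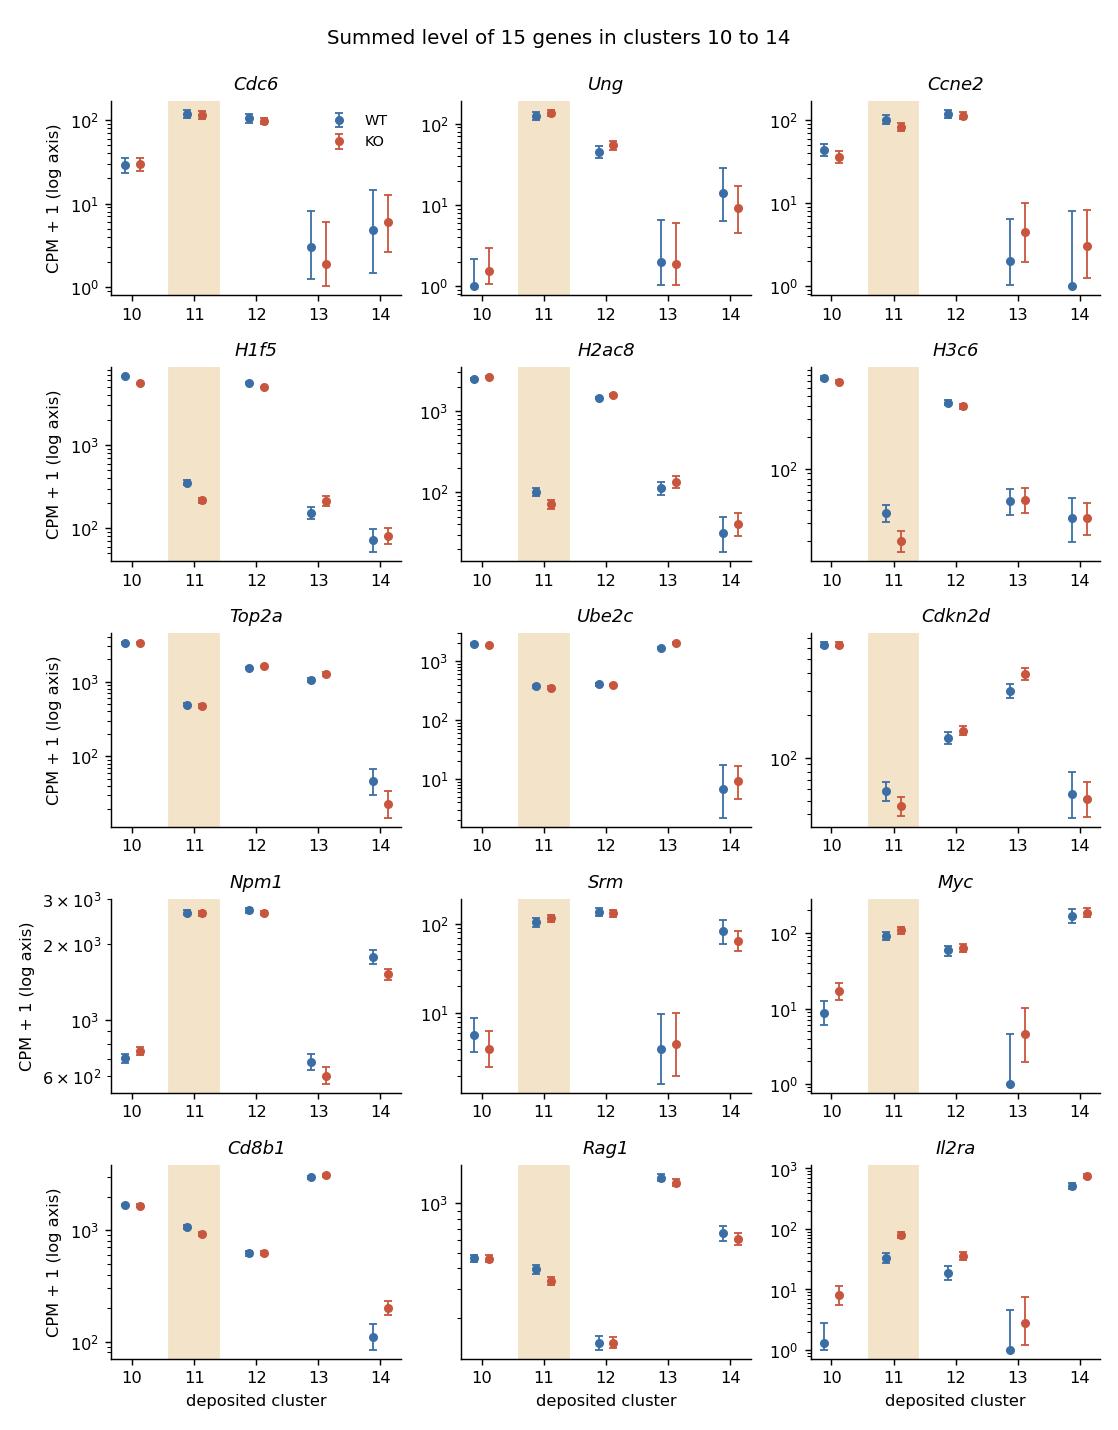
Summed level of 15 genes (CPM + 1, log axis) in deposited clusters 10 to 14, WT blue and KO red, 1 point per library with its exact 95% Poisson interval of counting error; the shaded column is cluster 11. In cluster 11 Cdc6 and Ung are high, the histone genes H1f5, H2ac8 and H3c6 low, and Npm1, Srm and Myc far above clusters 10 and 13.

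The list of 55 S phase genes took a median of 1.23% of a cell's UMIs in WT (1.13 to 1.33%) and 1.11% in KO (1.08 to 1.15%). That was 1.31 and 1.24 times the level of cluster 10 and 0.807 and 0.740 times that of cluster 12. Clusters 13 and 14 lay far below, at 0.123% to 0.189%. The 64 genes of G2 and mitosis took 1.00% in WT (0.956 to 1.11%) and 1.07% in KO (0.939 to 1.18%), while cluster 10 held 4.51% and 4.45%, and clusters 12 and 13 between 1.79% and 1.88%. A small tail of cells was further along: the highest 5% of the cells of cluster 11 exceeded 3.14% in WT and 2.94% in KO.

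Replication-dependent histones were the exception among S phase products. These transcripts are made mainly while DNA is copied. Since most end in a stem-loop in place of a poly(A) tail, a 3′ poly(A) protocol captures them in part. The 45 measured genes of this list took 0.184% of a cell's UMIs in WT (0.153 to 0.204%) and 0.130% in KO (0.118 to 0.143%). Cluster 12, with much the same level of licensing genes, held 2.03% and 1.88%, which is 11.1 and 14.5 times as much, and cluster 10 held 3.17% and 2.90%. Cluster 13, with mitosis transcripts but few of S phase, was close to cluster 11, with 0.220% and 0.225%, and the early cluster 14 held 0.101% and 0.0928%. Cluster 0, whose S phase medians were only 0.122% and 0.134%, was also near cluster 11, with histone medians of 0.161% and 0.130%. Only 6 of 177 WT cells (3.39%) and 0 of 188 KO cells (which allows a share of up to 1.596%) of cluster 11 reached the fifth percentile of cluster 12 cells of the same library, 0.741% in WT and 0.806% in KO.

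H1f5, a linker histone, shows the size of the gap. It was at 354 CPM in WT and 217 CPM in KO cells of cluster 11, beside 5603 and 4994 CPM in cluster 12 and 6703 and 5535 CPM in cluster 10. In thinned cells 33.9% (27.0 to 41.4%) of WT and 24.5% (18.5 to 31.3%) of KO cells of cluster 11 held an H1f5 UMI, against 100% and 99.5% in cluster 12. The core histone genes went the same way: H2ac8 was at 100 and 69.8 CPM in cluster 11 and at 1441 and 1587 CPM in cluster 12. H3c6 was at 36.0 and 18.9 CPM, against 432 and 398 CPM. Slbp, which binds the stem-loop of these transcripts, did not share the gap, with 472 and 406 CPM in cluster 11 and 574 and 640 CPM in cluster 12.

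**Figure D2:**
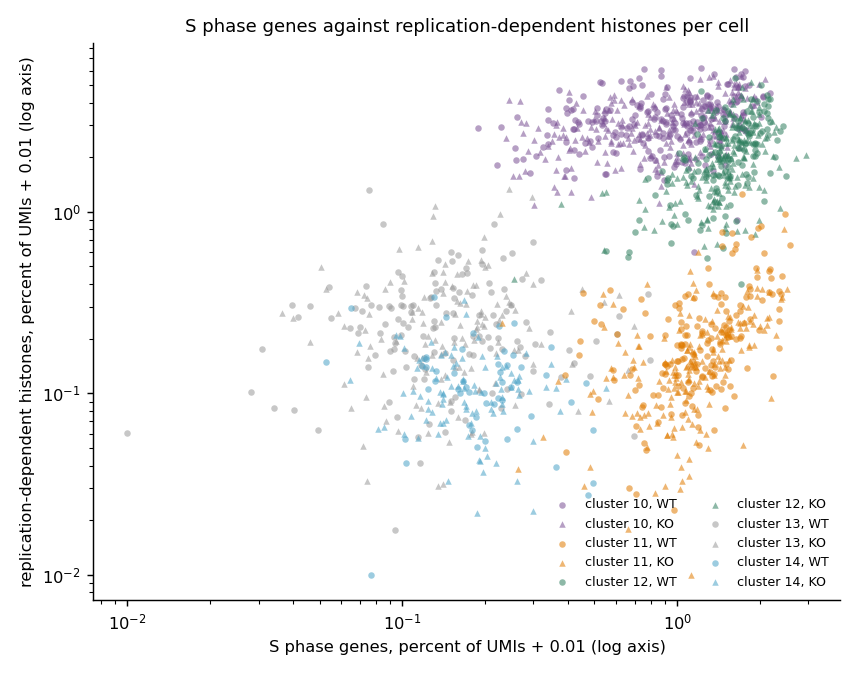
Each point is a cell of clusters 10 to 14 (circles WT, triangles KO), with the share of its UMIs on the 55 S phase genes (x axis) against that on the 45 replication-dependent histone genes (y axis), both in percent + 0.01 on log axes. Cells of cluster 11 lie at the S phase share of clusters 10 and 12 and at the histone share of clusters 13 and 14.

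**Figure D3:**
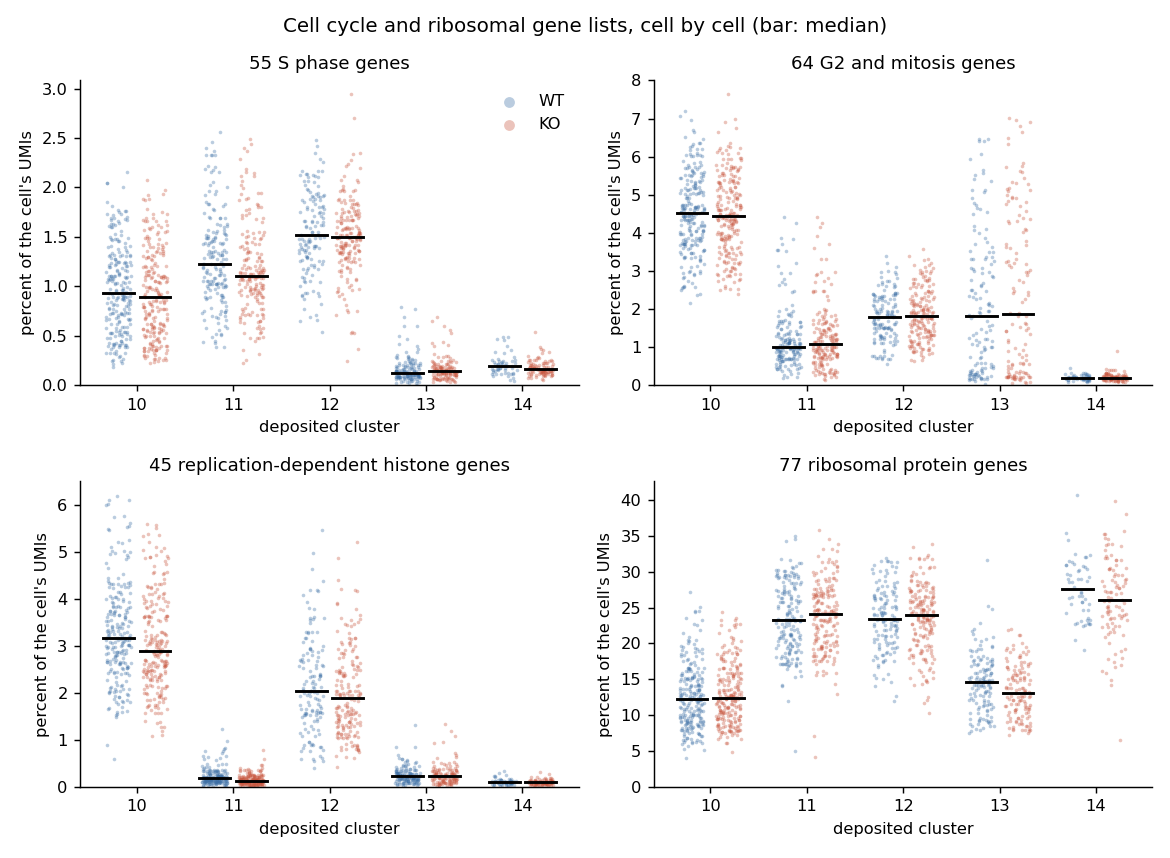
Share of each cell's UMIs (percent, linear axes from 0) on 4 gene lists in clusters 10 to 14, WT blue and KO red, with the median as a bar. Cluster 11 has S phase medians of 1.23% and 1.11%, histone medians of 0.184% and 0.130%, and ribosomal protein medians of 23.2% and 24.1%.

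The promoters of these lists differ in their letters, and short windows are shown for genes that were high (licensing), intermediate (mitosis) and low (histones) in cluster 11. Sequences are from RefSeq windows on GRCm38.p6, of 250 bases before to 50 after a gene's start, which matched 11780 of the 20282 gene names. A gene with several listed starts counted once if any of its windows matched. Every window below lies before the start used in that table and is written 5′ to 3′ on the gene's strand, with the motif in capitals. RefSeq's gene bounds for Cdc6 and Hells begin further upstream, so these windows lie inside the gene as annotated, and that of Top2a overlaps its gene's edge.

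The first set carries an E2F-type sequence (TTTGGCGC or TTTCCCGC on either strand), at chr11:98908002-98908029 (+ strand) for Cdc6, chr19:38930917-38930944 (+) for Hells, chr8:75109349-75109376 (+) for Mcm5 and chr1:128359736-128359763 (- strand) for Mcm6.
Cdc6: gccggtggagaGCGGGAAAtcgcctggg
Hells: gaccaccgggtTTTCCCGCgaaagagaa
Mcm5: caagaactttcGCGCCAAAacgtccagc
Mcm6: gattggacgggTTTGGCGCgaagtagct

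These letters were in the windows of 14 of the 44 matched S phase genes (31.8%) and of 383 of all 11780 genes (3.25%). They were found for 1 of 40 matched histone genes and 1 of 57 ribosomal protein genes. The same search before the start gave no window to show for Ung, E2f1, Ccne2, Mcm10, Chek1, Pcna and Uhrf1, several of them leading genes of the cluster.

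The second set carries TTTGAA on either strand, the core of the cell cycle homology region of mitotic genes, at chr11:99024196-99024223 (-) for Top2a and chr2:164769889-164769916 (+) for Ube2c.
Top2a: ctagataaaggTTCAAAtgaaactaggg
Ube2c: gagggttgcaaTTCAAAcgcgggcggcg

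It was in the windows of 40 of 56 matched G2 and mitosis genes (71.4%), 8 of 44 S phase genes (18.2%) and 1811 of all genes (15.4%). Histone genes also held it more often than all genes, with 16 of 40 (40%). For Cenpf, Birc5, Ccnb1 and Plk1 the same search before the start gave no window to show.

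The third set is from histone genes, with a CCAAT box for H1f5 at chr13:21780662-21780689 (-) and H3c6 at chr13:23562423-23562450 (-), a TATA box (TATAAA) for H2ac4 at chr13:23751036-23751063 (+), and the octamer ATTTGCAT for H2bc8 at chr13:23571330-23571357 (+).
H1f5: tggccgctccaCCAATcacagcccagca
H3c6: ctggccagaatCCAATcagagcgacgca
H2ac4: cctccagttagTATAAAtgcttgctgtt
H2bc8: ttgagtcccttATTTGCATagaacctct

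Of the 40 matched histone genes, 34 held CCAAT (85.0%, all genes 42.6%), 24 held TATAAA (60.0%, all genes 9.73%) and 10 held the octamer (25%, all genes 1.62%), each counted on either strand. TTTGAA and CCAAT can both be present in a window, and 76.8% of the mitosis genes also held CCAAT. The octamer search before the start gave no window to show for H2bc4. A match is a run of letters, and binding was not measured here.

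Between clusters, a gene was counted as higher or lower when its log2 ratio reached 1 in the same direction in both libraries, among genes with at least 50 UMIs over both clusters. Cluster 12 was the nearest neighbour. Of 9546 genes, 108 (1.13%) were higher in cluster 11 and 130 (1.36%) lower, while against cluster 10 it was 615 (6.43%) and 505 (5.28%) of 9561. TMM factors moved the first pair to 68 higher and 155 lower. Against cluster 13 there were 719 higher (8.1%) and 815 lower (9.18%) of 8874, and against cluster 14 there were 659 (7.47%) and 909 (10.3%) of 8820. For clusters 13 and 14 the direction of the balance depended on the scaling, with 910 higher and 562 lower, and 831 and 675, under TMM.

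Histones alone made up much of what was lower than in cluster 12. Of the 42 histone genes past the minimum 38 were lower, with median log2 ratios of -2.63 in WT and -3.03 in KO, where the median of all genes was 0.06 and 0.08. Of the 64 mitosis genes 20 were lower, among them the kinase Aurkb (29.4 and 29.5 CPM, against 163 and 175 CPM), and 2 were higher, Cenpa and Ccnb2. None of 77 ribosomal protein genes and none of 36 ribosome biogenesis genes was called in either direction. The genes higher in cluster 11 included Rag1, the recombinase subunit, with 394 and 333 CPM against 139 in both libraries of cluster 12, and Gm4632 with 32.5 and 84.8 CPM against 10.5 and 23.9 CPM. The remaining highest ratios were at low levels: E430002N23Rik, Gm9856, A930002I21Rik, Arhgap18, Magef1, C230096K16Rik and Slc7a11 lay between 13.6 and 26.9 CPM in cluster 11.

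Beside cluster 10, which held the most Top2a of the 5 clusters, cluster 11 had lower levels of most mitosis and histone genes. Of 64 mitosis genes 59 were lower (medians -2.18 and -2.23), and of 42 histones 40 were lower. Plk1, a mitotic kinase, was at 29.7 and 34.2 CPM against 230 and 232 CPM. The S phase list split: 15 genes were higher, including Mcm2, Mcm3, Mcm4, Mcm6, Gins2, Cdt1, Chaf1b and E2f1, and 3 were lower, namely Tyms and Rrm2, which make nucleotides, and the repressor E2f8. The cell cycle brakes were low in cluster 11. Cdkn2d, an inhibitor of Cdk4 and Cdk6, stood at 57.4 and 44.5 CPM in cluster 11 and at 633 and 629 CPM in cluster 10. Cdkn2c was at 42.7 and 27.8 CPM against 236 and 221 CPM, and Cdkn1b at 95.8 and 82.0 CPM against 230 and 196 CPM. Their targets Cdk4 and Cdk6 went the other way, with Cdk4 at 377 and 388 CPM against 148 and 174 CPM.

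Ribosomal protein transcripts took a median of 23.2% of UMIs in WT (21.97 to 24.6%) and 24.1% in KO (23.2 to 24.6%). This was 1.90 and 1.95 times cluster 10 and 1.59 and 1.84 times cluster 13, level with cluster 12 (0.992 and 1.01 times) and below cluster 14 (0.843 and 0.927 times). All 77 genes had a log2 ratio above 0 against cluster 10 in both libraries, of which 12 reached 1, such as Rps2 with 4551 and 4271 CPM against 1733 and 1809 CPM. The medians were 0.87 and 0.81, beside -0.05 and -0.06 over all genes. When ribosomal protein and mitochondrial genes were left out of the totals, the counts against cluster 10 were 867 higher and 360 lower.

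The genes that build ribosomes followed. Of 36 ribosome biogenesis genes, 29 were higher than in cluster 10 and 22 higher than in cluster 13, none was lower, and 2 were higher than in cluster 14. Npm1, a nucleolar chaperone, was at 2652 and 2636 CPM in cluster 11 and at 703 and 754 CPM in cluster 10. Ncl, another nucleolar protein, was at 1902 and 2080 CPM against 872 and 878 CPM. The list of MYC and blast metabolism had 16 of 28 genes higher than in cluster 10 and 20 of 26 higher than in cluster 13. Myc itself was at 90.6 and 108 CPM. It was lower in cluster 12, with 57.8 and 61.8 CPM, and in cluster 10, with 7.8 and 15.9 CPM, and higher in cluster 14, with 168 and 186 CPM. Srm, which makes spermidine, was at 102 and 113 CPM against 4.7 and 3.0 CPM in cluster 10. The mitochondrial chaperonin Hspd1 was at 578 and 610 CPM against 139 and 149 CPM. Of 16 glycolysis genes, 15 passed the minimum and 3 were higher than in cluster 10.

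Cluster 13 showed the reverse of cluster 11 within the cycle. Of 55 S phase genes 51 were higher in cluster 11, with medians of 3.02 and 2.82 (all genes -0.19 and -0.20), and 48 of 64 mitosis genes were lower. Cenpf, a kinetochore protein, was at 219 and 204 CPM in cluster 11 and at 1488 and 1596 CPM in cluster 13. The DP list was also lower in cluster 11: 18 of 27 genes past the minimum, none the other way. They included Rag1 and Rag2, Cd4 with 62.6 and 67.8 CPM against 300 and 314 CPM, and Cd8b1 with 1066 and 922 CPM against 2977 and 3099 CPM. Il2ra, the CD25 chain of late DN cells, was at 32.2 and 77.6 CPM in cluster 11 and at 0 and 1.8 CPM in cluster 13.

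Cluster 14 was the early cluster, in which Il2ra stood at 511 and 758 CPM. Of its cells, 48 of 54 in WT and 96 of 99 in KO held an Il2ra UMI. Against it, cluster 11 had 51 of 55 S phase genes, 59 of 64 mitosis genes and all 16 genes of the proliferation core higher. Of the 21 DN genes past the minimum 13 were lower and none higher, with medians of -2.06 and -2.03 (all genes -0.14 in both libraries). Of the 10 gamma-delta genes past it 8 were lower. Hes1, a Notch target, was at 13.99 and 33.9 CPM against 228 and 354 CPM. Gm4632 was at 32.5 and 84.8 CPM against 804 and 1022 CPM. Ccnd2, a D-type cyclin, was at 46.5 and 91.5 CPM against 468 and 461 CPM, while Ccnd3 was at 848 and 684 CPM against 200 and 232 CPM, so the D cyclins exchanged places.

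At the T cell receptor loci, alpha chain transcripts were low and beta chain transcripts intermediate. Trac, the alpha constant region, was at 82.9 CPM in WT (72.7 to 94.2) and 79.8 CPM in KO (70.8 to 89.6). It was at 184 CPM in both libraries of cluster 10, 296 and 310 CPM in cluster 13 and 64.1 and 52.5 CPM in cluster 14. The 77 Trav segments summed to 15.7 and 19.2 CPM in cluster 11, against 46.5 and 33.4 CPM in cluster 10. The beta constant regions Trbc1 and Trbc2 gave 7612 and 7473 CPM, between cluster 14 (4126 and 4178) and cluster 10 (11407 and 11501). The gamma constant regions Trgc1, Trgc2 and Trgc4 gave 286 CPM in WT and 345 CPM in KO. These were near absent from cluster 10 (1.6 and 12.9 CPM) and far higher in cluster 14 (1881 and 1693 CPM). Reads of the near-identical constant regions may have been split between the copies.

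The cells of cluster 11 were not uniform in coreceptor transcripts. A UMI of Cd8a or Cd8b1 was seen in 162 of 177 WT and 159 of 188 KO cells, while 15 WT cells (8.47%; 4.82 to 13.6%) and 29 KO cells (15.4%; 10.6 to 21.4%) had none. The cells without one were deep, with medians of 18841 and 17488 UMIs, and 0 of 15 and 1 of 29 had a high doublet score. Another 7 WT and 10 KO cells had 1 or 2 such UMIs and lie next to this border, which was drawn after the data were seen. In thinned cells 79.7% of WT (73.0 to 85.3%) and 70.7% of KO (63.7 to 77.1%) held a Cd8a or Cd8b1 UMI. Cluster 15 was taken as a group of cells led by the class II gene Cd74. Of its thinned cells, 34.5% and 19.7% held such a UMI, at median depths of 1202 and 4284 UMIs. Whether free RNA contributed to these shares, or the cells of cluster 15 made the transcripts themselves, was not tested.

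Several early genes were higher in the cells without Cd8 UMIs. Il2ra was at 194 CPM in the 15 WT cells (144 to 255) and 315 CPM in the 29 KO cells (268 to 366), beside 16.1 and 37.1 CPM in the cells with Cd8 UMIs. Trgc1 was at 883 and 663 CPM beside 54.6 and 54.4 CPM. Plac8 was at 1484 and 1264 CPM beside 155 and 103 CPM, and Myl10 at 756 and 623 CPM beside 59.6 and 65.1 CPM. Other early genes did not follow in both libraries. Ptcra was at 31.0 CPM in WT (13.4 to 61.1) and 130 CPM in KO cells without Cd8 UMIs (100.7 to 164), beside 83.8 and 86.9 CPM in the others. Notch1 was at 116 and 284 CPM beside 105 and 109 CPM. Conversely Rag1 was at 19.4 and 132 CPM beside 431 and 367 CPM, and Ccnd3 at 368 and 257 CPM beside 895 and 757 CPM. Mcm5 differed little, with 240 and 219 CPM beside 295 and 287 CPM, and Dntt was at 1228 and 1169 CPM beside 1143 and 1052 CPM. Of the cells without Cd8 UMIs, 14 of 15 in WT and 25 of 29 in KO held a Trgc UMI. Whether these cells were earlier in stage or of the gamma-delta lineage was not tested.

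**Figure D4:**
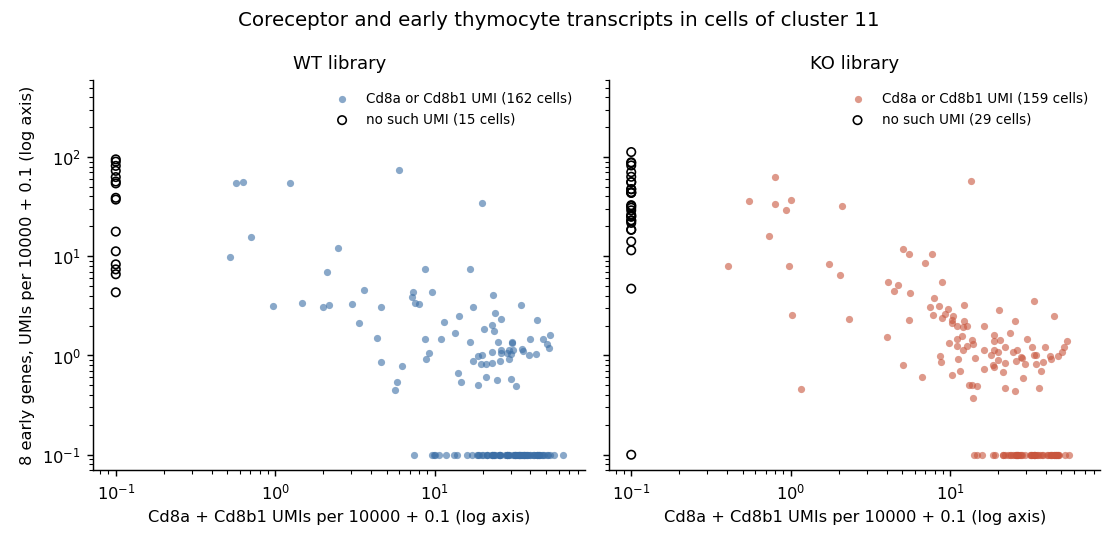
Each point is a cell of cluster 11 in the WT (left) or KO (right) library, with its summed Cd8a and Cd8b1 UMIs per 10000 (x axis) against those of Il2ra, Hes1, Notch3, Myl10, Plac8, Trgc1, Trgc2 and Trgc4 (y axis), both + 0.1 on log axes. The cells without a Cd8 UMI (open circles, 15 WT and 29 KO) mostly hold the highest summed levels of these genes. The cells with most Cd8 hold the lowest. The genes summed were chosen with earlier results of these data known. The sum leaves out early genes that did not follow in both libraries, such as Ptcra and Notch1.

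Cells with both Cd8 and Cd4 UMIs numbered 94 in WT (53.1%; 45.5 to 60.6%) and 94 in KO (50%; 42.6 to 57.4%). Cells with Cd8 but no Cd4 UMI numbered 68 (38.4%) and 65 (34.6%). The former had fewer UMIs (medians 10525 and 13664, against 18871 and 22390). They also had lower ribosomal protein shares, with medians of 21.1% and 21.5% against 26.6% and 26.3%. A Trgc UMI was seen in 14 and 20 of the cells with Cd4 and in 21 and 36 of those with Cd8 alone. In thinned cells 10.7% of WT and 12.8% of KO cells held a Cd4 UMI, beside 2 of 29 (6.90%) and 4 of 71 (5.63%) in cluster 15.

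Cdc42 was only slightly lower in the KO library. It lies at chr4:137319696-137357759 (GRCm38.p6) and was counted at 384 CPM in WT and 322 CPM in KO cells of cluster 11, a log2 ratio of -0.25 (-0.37 to -0.13) or 0.838-fold. The ratios in clusters 10, 12, 13 and 14 were -0.20, -0.29, -0.20 and -0.04. A count of 3′ ends still registers transcripts that lack exon 2, so these values do not measure the deletion and do not check the labels. The genotype of a cell rests on WT or KO in its deposited name, in which Cdc45 stands where the labels have Cdc42. Of the 38 genes of the Cdc42 and actin list, 1 (Arhgef7) was higher by 0.5 or more and none lower, with a median of 0.06.

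For KO beside WT a log2 ratio of 0.5 or more in either direction was counted, among genes with at least 50 UMIs over both libraries. In cluster 11, 477 of 8045 genes (5.93%) were higher in KO and 192 (2.39%) lower, with a median of 0.04. TMM factors moved the counts to 347 higher and 265 lower, so the surplus of higher genes rested partly on the scaling. The 55 S phase genes had 0 counted in either direction (median -0.07), as did the 16 genes of the proliferation core (-0.08). Of 64 mitosis genes 2 were higher, Cdc25b and Pttg1 (median -0.02). Of 77 ribosomal protein genes 2 were higher, Rpl38 with 1137 and 1699 CPM and Rps28 with 1068 and 1542 CPM, and the median was -0.05.

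Among the cell cycle lists, the histones were lower in KO. Of 29 histone genes past the minimum 13 were lower by 0.5 or more and none higher, with a median of -0.46. H1f5 was at 354 CPM in WT and 217 CPM in KO, a log2 ratio of -0.70 (-0.84 to -0.57). The same 29 genes had medians of -0.12 in cluster 10 and -0.08 in cluster 12, where 0 were counted in either direction. The 21 of them past the minimum in cluster 13 had a median of 0.26. Summed over the list, histones were at 1963 CPM in WT and 1424 CPM in KO cells of cluster 11. Cluster 0, which had few S phase transcripts, also had less in KO, with 1855 and 1505 CPM. In cluster 13 the sum was higher in KO, with 2261 and 2522 CPM. In cluster 11 the share of UMIs on histones was lower in cells without Cd8 UMIs, with medians of 0.133% in WT and 0.0532% in KO, and such cells were 8.47% of WT and 15.4% of KO, with overlapping intervals. Among cells with Cd8 UMIs alone the list median was -0.37. The KO cells were also deeper, with a median of 17206 UMIs against 12864, and the part of depth was not tested.

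Some genes of early and of late stages were higher in the KO library. Of 17 DN genes past the minimum 5 were higher and none lower, namely Il2ra, Hes1, Notch3, Dtx1 and Il7r. The list median was 0.17, and the share of a cell's UMIs on the whole DN list had a median of 0.613% in WT (0.572 to 0.662%) and 0.582% in KO (0.562 to 0.615%). Of 14 genes of the late single positive list 5 were higher and none lower, namely Klf2, Ms4a4b, Il7r, Gimap5 and Ifi27l2a, with a median of 0.19. Klf2, a factor of cells ready to leave the thymus, was at 15.04 and 31.1 CPM. Of 7 gamma-delta genes 4 were higher: Trgc2, Trgv2, Id2 and Gm4632. Il2ra was at 32.2 CPM in WT and 77.6 CPM in KO (2.40-fold, 1.90 to 3.09), and Il2ra UMIs were seen in 18 of 177 (10.2%; 6.14 to 15.6%) and 40 of 188 cells (21.3%; 15.7 to 27.8%). In thinned cells the shares were 2.26% (0.619 to 5.68%) and 6.38% (3.34 to 10.9%), whose intervals overlap. They were 1.83% and 0% in cluster 7, and 0 of 29 WT and 4 of 71 KO cells (5.63%) in cluster 15. Hes1 was at 13.99 and 33.9 CPM (2.40-fold, 1.68 to 3.56). Both genes were also higher in KO in other clusters. The log2 ratios of Il2ra were 0.96 in cluster 12 and 0.57 in cluster 14, and those of Hes1 were 2.11 and 0.63. Trgc UMIs were seen in 49 WT (27.7%; 21.2 to 34.9%) and 81 KO cells (43.1%; 35.9 to 50.5%). In thinned cells the Trgc shares were 12.99% in WT (8.42 to 18.9%) and 20.7% in KO (15.2 to 27.2%), whose intervals overlap. Trgc1, Trgc2 and Trgc4 summed to 107 CPM in WT and 213 CPM in KO cells of cluster 12, but to 1881 and 1693 CPM in cluster 14. Among cells with Cd8 UMIs the log2 ratio of Hes1 was 0.32 (-0.41 to 1.09), while that of Il2ra was 1.19 (0.68 to 1.75). In that subset 387 genes were higher and 214 lower of 7651.

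Several of the largest ratios had the same sign in the other clusters, though not always the same size. Ctsl, a lysosomal protease, was at 910 CPM in WT and 89.5 CPM in KO, a log2 ratio of -3.34 (-3.52 to -3.18), and its ratios were -3.69, -2.90, -3.60 and -1.83 in clusters 10, 12, 13 and 14. Gm45315 was at 4.2 and 214 CPM, 5.61 in cluster 11 and between 4.53 and 5.09 in the others. Arl3, a small GTPase, was at 68.2 and 27.8 CPM (-1.29, and -1.29 to -0.69 elsewhere). Epsti1, an interferon-induced gene, was at 26.6 and 74.5 CPM (1.48, and 1.11 to 2.51 elsewhere), and mt-Nd3, a subunit of respiratory complex I, at 70.0 and 179 CPM (1.35, and 1.06 to 1.29 elsewhere). Pttg1, securin, was at 19.9 and 77.8 CPM (1.96), and its ratios in clusters 10, 12 and 13 were 3.08, 1.01 and 2.02.

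For some genes a single cell held a large share of the UMIs. Cpa3, a carboxypeptidase of mast cells and early progenitors, was at 44.8 CPM in WT and 11.1 CPM in KO, but it was seen in 5.65% and 6.38% of the cells, and 1 cell held 28.1% of the WT and 35% of the KO UMIs. Ctla2a was at 37.4 and 14.5 CPM and seen in 7.34% and 9.04% of cells. Of the 37 Ms4a4b UMIs in WT, 43.2% came from 1 cell. Ifi27l2a, an interferon-induced gene, was at 25.2 and 99.8 CPM and seen in 14.1% and 28.7% of cells. Gm4632 was at 32.5 and 84.8 CPM in 9.04% and 17.0% of cells. Kif1b, a kinesin, was seen in 12.4% and 27.7% of cells, with at most 7.69% and 6.98% of its UMIs in 1 cell, and was at 9.1 and 23.9 CPM (1.38), with 0.09, -0.31 and 0.32 in clusters 10, 12 and 13.

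Among the lower genes Itm2a, which follows receptor signals, was at 54.6 CPM in WT and 23.9 CPM in KO (-1.19; -1.59 to -0.80), and its ratios were -0.19, -0.76 and -0.37 in clusters 10, 12 and 13. Cd69, of the same selection signal list, was at 16.1 and 5.56 CPM, and these were the 2 of 11 genes of that list past the minimum that were counted as lower. H3c6 (36.0 and 18.9 CPM), H3c1 (43.0 and 24.2 CPM), Bloc1s1 (22.7 and 11.96 CPM), A430035B10Rik (39.9 and 21.1 CPM) and Mvk (20.6 and 11.4 CPM) completed the 10 lowest, with ratios between -0.93 and -0.83. In the list of cyclins, Cdks and their inhibitors, Ccnd2 was at 46.5 and 91.5 CPM (0.97; 0.68 to 1.28) and Cdkn2c at 42.7 and 27.8 CPM (-0.62; -1.01 to -0.23).

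**Figure D5:**
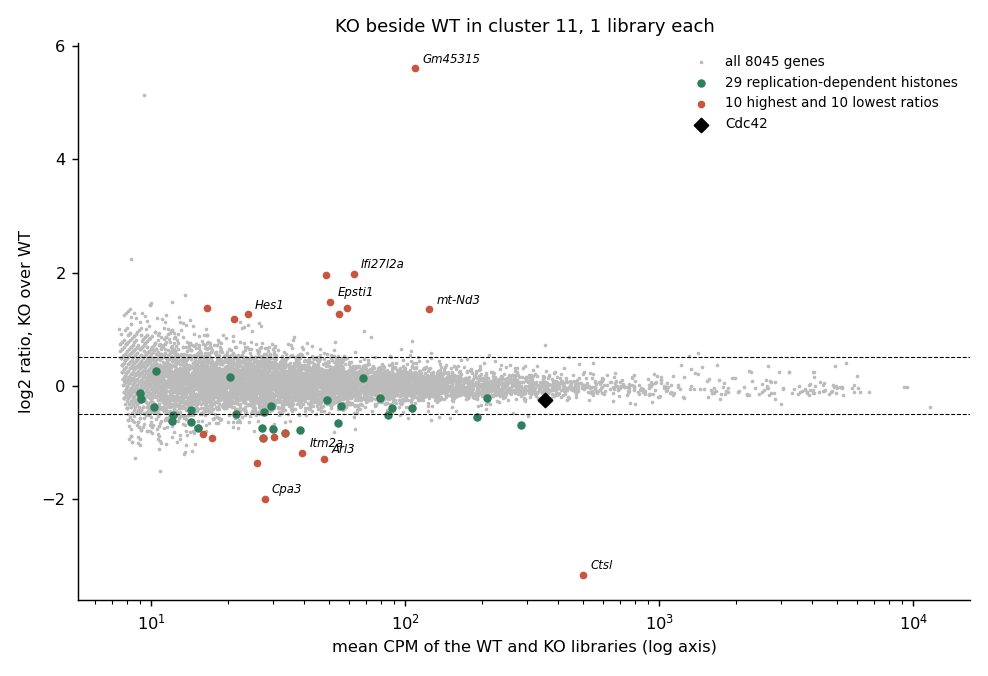
Log2 ratio of KO over WT in cluster 11 against the mean CPM of both libraries (log axis) for the genes past the minimum, with 29 replication-dependent histones in green, the 10 highest and 10 lowest ratios in red, Cdc42 as a diamond, and dashed lines at 0.5 and -0.5. Histone genes lie mostly below 0, with a median of -0.46, and Ctsl and Gm45315 stand apart; each genotype is 1 library, so no error between animals is shown.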

How the data were processed

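Single-cell libraries were made with the 10x 3′ protocol from whole thymus, 1 per genotype. Per the labels and the submitters' processing notes, reads were processed with Cell Ranger 3.0.2 (STAR, mm10) and Seurat. The authors deposited raw UMI counts per gene and cell, and a cell table with clusters, and had removed cells under 200 genes, above 6000 genes or above 50000 reads. The mitochondrial percentages in that table are 0 in every cell and were recomputed from the counts.

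Counts were summed per cluster and library and scaled to CPM. Log2 ratios had 0.5 UMIs added to each count, and genes needed 50 UMIs in all (100 to be named). Intervals are exact Poisson, conditional binomial or Clopper-Pearson, and medians carry order-statistic intervals. With 1 library a genotype no count model was tested. Named genes were the listed genes, Cdc42, the 10 highest and lowest ratios of KO over WT, the 8 highest and lowest of each cluster contrast, and the 10 leading genes. Plk1 and other single genes of a list stand as examples of it. Alternatives included TMM (edgeR 4.0.16) and DESeq2 1.42.0 size factors, other minimum counts, and doublet scores from scanpy 1.11.5. Scripts were tested on simulated counts. The members and gene lists were chosen with earlier results of these data known.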

Additional observations from a re-analysis of the deposited data

Results flagged for a closer look

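For 3 genes the log2 ratio of KO over WT in cluster 14 had the opposite sign to that in cluster 11. Ifi27l2a was -0.95 in cluster 14 and 1.98 in cluster 11, Ms4a4b was -0.95 and 1.17, and Cpa3 was 0.83 and -1.997. With 1 library a genotype the difference was not tested.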

How the results depend on the processing

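Each genotype has 1 library, so animals cannot be told apart from library and no error between mice is known. No paired analysis was possible because each group has 1 sample. Of the recomputed main values 135 stayed close to those reported and 18 moved, and none of the 20 named genes changed sign. The KO over WT medians of 2 lists that lay near 0 did: G2 and mitosis, -0.02, was 0.04 with means over cells and 0.02 without the 5% of cells with most UMIs, and Cdc42 and actin, 0.06, was -0.01 without those cells. Of the 240 alternatives for 20 named genes, 234 stayed within the counting interval. Both these counts and the 135 include the clusterings at resolutions 1.8 and 2. Those hold the same 365 cells, so they repeat the main values by construction and say nothing about robustness.

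The counts of genes depended on the minimum. For KO over WT, 477 higher genes became 987 at 20 UMIs and 3954 at 1 UMI, and 192 lower genes became 487 and 2588, or 293 with means over cells. At 1 UMI the counts against cluster 10 were 1556 higher and 962 lower, against cluster 12 they were 720 and 459, and 2621 and 3072 genes were lower than in clusters 13 and 14. Against cluster 12, 192 genes were higher at 20 UMIs and 68 with TMM or DESeq2 factors. The split of KO over WT was 347 higher and 265 lower with TMM and 344 and 269 with DESeq2. DESeq2 factors gave 68 and 153 against cluster 12, 914 and 558 against cluster 13, and 833 and 668 against cluster 14, and totals without ribosomal protein and mitochondrial genes gave 946 and 548 against cluster 13. TMM moved the all-gene medians against cluster 13 from -0.19 and -0.20 to -0.02 and -0.03, and against cluster 14 from -0.14 and -0.14 to 0.04 and 0.01. Totals without those genes moved the medians against cluster 10 to 0.15 and 0.13. Of the summed UMIs rather than the median cell, ribosomal proteins took 24.99% in WT and 24.7% in KO, and G2 and mitosis genes 1.28% and 1.27%.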
